A study of Homo sapiens with 4 samples.

Results

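Fibrinogen, the plasma protein that thrombin turns into the fibrin of a clot, is built from paired alpha, beta and gamma chains encoded by FGA, FGB and FGG. FGL1 and FGL2 are relatives that share the globular fibrinogen-like domain. These 5 symbols were looked up among the array probes that carried 1 gene symbol. FGB, FGG and FGL1 had 1 probe each and FGL2 had 3, while FGA had 0 probes of its own and so had no log ratio here. The group therefore held 4 of the 12483 genes with a symbol and 6 of the 20976 probes with 1 symbol. The group was selected on the mean log ratios of these 4 arrays, FGB, FGG and FGL1 being the members put forward, so their mean log ratios are given as a description without a test.

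The arrays compared A549 cultures transfected with let-7a-3, a microRNA gene of the let-7 family, with parental A549 cultures. A549 is a human lung adenocarcinoma line, and per the labels all cultures grew in serum-containing medium without further treatment. Total RNA was amplified and labelled with Cy3 or Cy5, and the let-7a-3 and parental cultures met in pairs on 4 cDNA arrays of 2 colours. The dyes were exchanged between arrays 1 and 3 and arrays 2 and 4. This orientation was read from the channels of the numbered RNA sources, and the labels do not say which of them are let-7a-3 cultures. The controls were the parental line, so transfection and let-7a-3 cannot be told apart, and neither the promoter that drove let-7a-3 nor the number of transfected lines is stated in the labels. If the let-7a-3 cultures came from 1 line, the spread and the p-values cover only that line.

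Each value below is the log ratio of the 2 channels as deposited. Neither the base of the logarithm nor the numerator channel is stated in the labels, nor whether dye-swapped arrays were turned to 1 direction. No fold is therefore stated, a positive value may stand for either culture, and a turned sign would make each positive value negative. Across all 26629 probes, arrays of the same dye orientation correlated with Pearson r = 0.43 and 0.56, and arrays of opposite orientation with r between -0.16 and 0.055. Hence 2 quantities were estimated per gene. The shared component is the mean over arrays, and the alternating component is the mean after turning the sign of arrays 2 and 4. Either may hold the difference between let-7a-3 and parental cultures. Array medians lay between -0.0022 and 0.0174 and standard deviations between 0.173 and 0.193, and 4 arrays limit how precise any mean can be.

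Hepatocytes make most plasma fibrinogen, and the 3 chain genes are known to be induced together in the acute phase response by interleukin-6, through STAT3 and C/EBP factors, with help from glucocorticoids. Lung epithelial cells, A549 among them, are known to make fibrinogen after such stimulation. FGL1 is a hepatocyte protein that binds the immune checkpoint receptor LAG3, and FGL2 exists as a membrane prothrombinase and as a secreted suppressor of T cells. Let-7 microRNAs silence mRNAs that pair with their seed, bases 2 to 8. The mature product of the transfected gene is shown because it is the agent tested, with the seed in capitals and as RefSeq gives it (MIRLET7A3, chr22:46112752-46112773, plus strand, GRCh38.p14).
hsa-let-7a-5p: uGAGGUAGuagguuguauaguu

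FGB and FGG lie with FGA between them in 1 cluster of 49.7 kb at chr4:154562980-154612656 (GRCh38.p14). The 250 bases before each start site are printed because FGB and FGG were both high on every array and the known interleukin-6 control of the cluster rests on elements in such sequence. Capitals mark matches, on either strand, to 4 motifs searched in the 300-base windows that RefSeq's annotation gives from 250 before to 50 after each start. The interleukin-6 type II element was searched as CTGGGAA and the C/EBP site as TTGCNNAA. For the core promoter the letters of the TATA box were TATAAA, and the STAT element was searched as TTCNNNGAA. The FGB window lies on the plus strand at chr4:154562730-154562979 and the FGG window on the minus strand at chr4:154612657-154612906.
FGB: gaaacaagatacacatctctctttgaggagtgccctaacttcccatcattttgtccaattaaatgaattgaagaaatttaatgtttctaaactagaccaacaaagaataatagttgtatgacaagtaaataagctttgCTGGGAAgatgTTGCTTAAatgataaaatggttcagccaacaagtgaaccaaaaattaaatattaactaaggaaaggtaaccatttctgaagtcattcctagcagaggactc
FGG: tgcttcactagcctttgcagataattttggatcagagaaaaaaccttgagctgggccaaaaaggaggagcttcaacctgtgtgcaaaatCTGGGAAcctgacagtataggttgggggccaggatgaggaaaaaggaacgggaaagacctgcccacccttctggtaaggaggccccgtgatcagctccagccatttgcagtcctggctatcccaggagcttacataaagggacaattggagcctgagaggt

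Both windows held CTGGGAA, starting at position -112 from the FGB start and at -161 from the FGG start. FGB also held TTGCNNAA at -101, and no 2 matches overlapped. Among 35116 windows of the same length, 10.8% held CTGGGAA and 10.5% TTGCNNAA, so each match alone is common. TATAAA, held by 11.5% of windows, and TTCNNNGAA, held by 7.66%, had no match in the FGB or FGG window. The FGA window, searched in the same way and not printed, had no CTGGGAA. It held TTGCNNAA at -141, on the strand opposite the gene, and TTCNNNGAA at -231. Matches in the window of FGL1 were not examined.

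FGG, the gamma chain, which carries binding sites for platelet and leukocyte integrins, had log ratios of 1.11, 1.20, 0.64 and 1.18 on arrays 1 to 4. Arrays 1, 2 and 4 lay close together and array 3 stood apart below them. The mean was 1.03 ± 0.26 (SD, n = 4), and 1.15 in the fit without array 3. Its probe is annotated with 2 FGG transcripts, so the splice forms of the gamma chain are not separated.

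FGB, the beta chain, whose synthesis is thought to limit fibrinogen assembly, had log ratios of 0.62, 0.66, 1.00 and 1.11 on arrays 1 to 4. Arrays 3 and 4 were high and arrays 1 and 2 lower, a split that does not follow the dye orientation. The mean was 0.85 ± 0.25 (SD, n = 4).

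FGL1, also called hepassocin and a growth factor for hepatocytes, had log ratios of 0.84, 0.80, 1.24 and 0.69 on arrays 1 to 4. Its high array was array 3, the one on which FGG was lowest. The mean was 0.90 ± 0.24 (SD, n = 4). The probe is annotated with 4 FGL1 transcripts.

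FGL2 lay close to 0. Its probes averaged 0.013 ± 0.038, 0.098 ± 0.078 and -0.097 ± 0.25 (SD, n = 4 each), and the gene averaged 0.039, 0.11, -0.067 and -0.068 on arrays 1 to 4, a mean of 0.005 ± 0.089. The third probe had 0.27 on array 2 and between -0.29 and -0.15 on the others, so the FGL2 clones did not share a pattern over arrays.

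**Figure D1:**
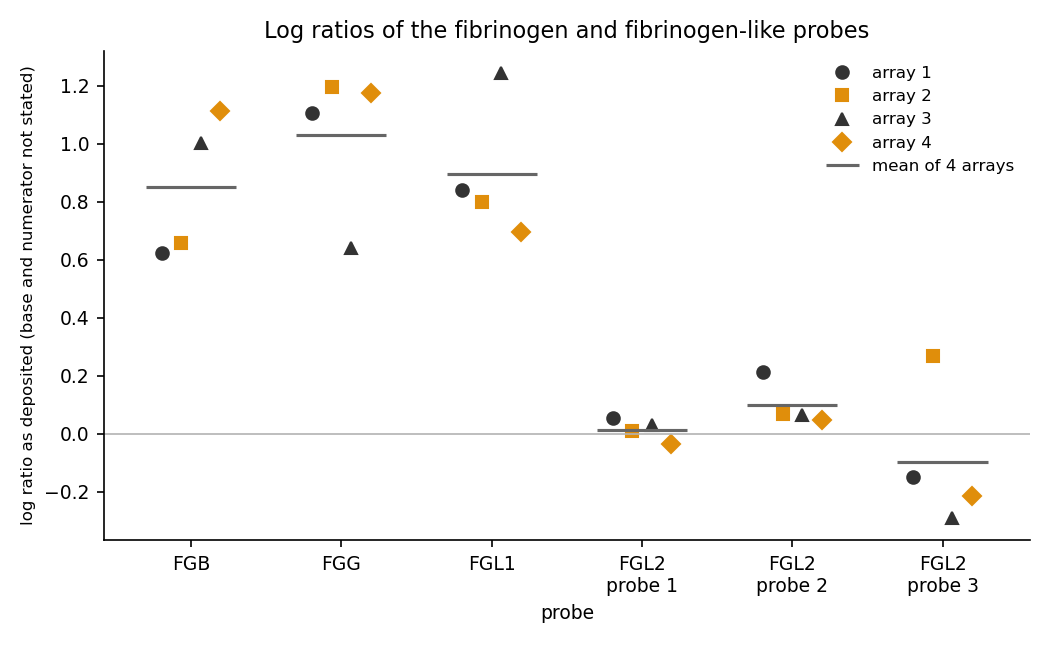
Log ratio as deposited (y axis) of each probe (x axis) on arrays 1 to 4, with the mean of the 4 arrays as a bar; dark symbols are arrays 1 and 3 and orange symbols arrays 2 and 4, the opposite dye orientation. FGB, FGG and FGL1 sit between 0.62 and 1.24, while the 3 FGL2 probes sit between -0.29 and 0.27.

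All 12 values of FGB, FGG and FGL1 were positive, the lowest 0.62 and the highest 1.24. A log ratio above 0 on all 4 arrays was found in 3 of the 4 genes of the group and in 8.84% of all genes, and one above 0.5 on all 4 in the same 3 and in 0.216% of all genes (27 of 12483). These shares describe values with which the members were chosen. By mean log ratio FGG ranked 7 of 12483 genes from the highest, FGL1 15, FGB 17 and FGL2 6408. Within single arrays the ranks of FGG were 6, 4, 44 and 4, those of FGL1 19, 15, 4 and 26, and those of FGB 47, 26, 12 and 6.

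The order among FGB, FGG and FGL1 was not the same on every array. FGG was the highest on arrays 1, 2 and 4 and the lowest on array 3, where FGL1 led. The mean of the 3 genes changed little between arrays, at 0.86, 0.88, 0.96 and 0.995, while the range between them was 0.48 to 0.61. FGB minus FGG averaged -0.18 ± 0.42, FGL1 minus FGB 0.05 ± 0.31 and FGL1 minus FGG -0.13 ± 0.50 (SD, n = 4 each). Each of these differences was smaller than its spread over arrays, so the data do not order the 3 genes by mean. Because variance stabilization compresses the ratios of dim spots and no intensities were used, equal log ratios of 2 probes need not stand for equal changes.

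The alternating component, which does not enter the mean, was tested in limma with Benjamini-Hochberg adjustment over all 12483 genes. None of the 4 genes passed an adjusted p of 0.05, which 3.29% of all genes passed, and 0 of the 4 were under 0.05 unadjusted, as 25.6% of all genes were. FGG had -0.16 (95% interval -0.32 to 0.0071; limma adjusted p = 0.211) and FGL1 0.15 (-0.0033 to 0.30; adjusted p = 0.204). FGB had -0.04 (-0.23 to 0.16; limma adjusted p = 0.821) and FGL2 -0.02 (-0.13 to 0.09; adjusted p = 0.841). Without array 1, FGG (-0.27, limma adjusted p = 0.000431) and FGL1 (0.25, adjusted p = 0.00129) passed, with opposite signs and 1 residual degree of freedom. In that fit 18.4% of all genes passed.

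In RNA from whole cultures, a larger share of cells making an mRNA and more of it per cell cannot be told apart. A log ratio holds no level, so whether the cultures were alveolar epithelium, or held other cells, could not be checked against marker levels. Of 10 measured alveolar and airway markers the keratin KRT8 passed with a positive mean (0.39 ± 0.13, SD, n = 4; limma adjusted p = 0.00698), and 9 did not pass. None of 8 hepatocyte, 5 fibroblast, 4 platelet and 5 endothelial markers passed in the shared component in limma, with 0, 1, 2 and 1 under an unadjusted p of 0.05. Among all genes 3.04% passed in that component and 1822 of 12483 were under 0.05 unadjusted. In the alternating component the endothelial receptor TEK passed (-0.20, limma adjusted p = 0.0439), as 3.29% of all genes did. TEK did not pass when array 2 (limma adjusted p = 0.174), array 4 (0.217) or the dye term (0.216) was left out or with median centring (0.05001).

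The first question on the surrounding biology was whether other acute phase proteins moved with the fibrinogen genes. Among 28 listed acute phase and hepatocyte plasma proteins 21 were measured, and SERPINA1, SERPINA3, HP and ORM1 were not among them. None of the 21 passed in the shared component in limma, and 1 was under an unadjusted p of 0.05 (all genes: 3.04% passed, 1822 of 12483 under 0.05 unadjusted). Their means ran from -0.15 to 0.09 with a median of 0.015, against a median of 0.007 over all genes outside the fibrinogen group. The list pools acute phase proteins with other plasma proteins of hepatocytes, such as ALB, TTR and APOA1. Its median therefore does not describe acute phase proteins alone. SAA1, serum amyloid A, had 0.44, -0.07, 0.10 and -0.10 on arrays 1 to 4, highest on array 1. Its signs followed the dye orientation, and its alternating value of 0.18 did not pass (limma adjusted p = 0.118). ITIH3, an inter-alpha-trypsin inhibitor chain, was the one under 0.05 unadjusted in the shared component, at -0.15 ± 0.22. Complement C3 averaged 0.03 ± 0.08 (SD, n = 4), and C-reactive protein, CRP, averaged -0.02 ± 0.10. In the alternating component none of the 21 passed and 6 were under 0.05 unadjusted, against 3.29% and 25.6% of all genes. The lowest single value of FGB, FGG and FGL1, 0.62, lay above every mean in this list. Because these 3 genes were selected on their mean log ratios, that contrast is a description and not a test.

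Of the interleukin-6 family, which signals through the receptor subunit IL6ST to JAK kinases and STAT3, 18 of 23 listed genes were measured. In the shared component none passed in limma and 1 was under an unadjusted p of 0.05, the kinase TYK2 (0.11). Among all genes 3.04% passed and 1822 of 12483 were under 0.05 unadjusted. TYK2 had 0.02, 0.27, -0.09 and 0.23 on arrays 1 to 4, higher on arrays 2 and 4. Its alternating value of -0.15 did not pass (limma adjusted p = 0.0901). The cytokine IL6 had -0.12, -0.14, 0.14 and -0.19 on arrays 1 to 4, a mean of -0.08 ± 0.15 (SD, n = 4). IL6ST averaged 0.03 ± 0.06, STAT3 0.001 ± 0.14 and SOCS3, the feedback inhibitor that STAT3 induces, 0.005 ± 0.033. The 3 SOCS3 probes averaged -0.02, 0.03 and 0.009.

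In this family 2 of the 18 measured genes passed in the alternating component, where the values follow the dye orientation, against 3.29% of all genes. Under 0.05 unadjusted in limma were 6 of the 18, against 25.6% of all genes. JAK1 had 0.13, -0.33, 0.38 and -0.25 on arrays 1 to 4 and an alternating value of 0.27 (limma adjusted p = 0.0395). IL11, a cytokine that also signals through IL6ST, had -0.18, 0.14, -0.26 and 0.28 and an alternating value of -0.22 (limma adjusted p = 0.0446). For both genes the arrays of opposite dye orientation had opposite signs. The JAK1 call was lost when array 2 (limma adjusted p = 0.168), array 4 (0.118) or the dye term (0.0988) was left out, and so was the IL11 call (0.134, 0.225 and 0.103), which was also lost with median centring (0.05001).

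Of 15 transcription factors known to act at fibrinogen genes 8 were measured, CEBPB and CEBPD not among them. FOXA1, a forkhead factor of liver and airway epithelium, passed in the shared component with 0.47, 0.28, 0.38 and 0.20 on arrays 1 to 4 (mean 0.33 ± 0.12, SD, n = 4; limma adjusted p = 0.00523). Its probes differed, one averaging 0.59 and the other 0.07. In limma over all 26629 probes, the first passed in the shared component (adjusted p = 0.000212) and the second did not (0.650). The first had 0.83, 0.36, 0.82 and 0.35 on arrays 1 to 4 and also passed in the alternating component (limma adjusted p = 0.0354). The other 7 factors did not pass in the shared component, in which 3.04% of all genes passed. Under an unadjusted p of 0.05 in limma were 2 of the 8, against 1822 of 12483 among all genes. The glucocorticoid receptor NR3C1 had 0.12, 0.21, -0.07 and 0.21 on arrays 1 to 4 (mean 0.12 ± 0.13, limma adjusted p = 0.296).

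Of 34 coagulation and fibrinolysis genes 20 were measured, and TFPI, the inhibitor of the tissue factor pathway, was the one that passed in the shared component. It had 0.48, 0.13, 0.43 and 0.31 on arrays 1 to 4 (mean 0.34 ± 0.16, SD, n = 4; limma adjusted p = 0.00717), and its probes averaged 0.50 and 0.18. In limma over all 26629 probes, the first TFPI probe passed in the shared component (adjusted p = 0.000952) and the second did not (0.279). The second passed in the alternating component (limma adjusted p = 0.0429). The other 19 genes did not pass in the shared component, in which 3.04% of all genes passed. Under an unadjusted p of 0.05 in that component in limma were 5 of the 20, against 1822 of 12483 among all genes. Tissue factor, F3, which starts clotting, had 0.56, -0.50, 0.09 and -0.22 on arrays 1 to 4, with a mean of -0.02 ± 0.45 (SD, n = 4). Its values followed the dye orientation, positive on arrays 1 and 3 and negative on arrays 2 and 4. Its alternating value of 0.34 was the largest among all list genes, and did not pass in the fit over genes (limma adjusted p = 0.0557). In limma over all 26629 probes the same values of its 1 probe passed (adjusted p = 0.0467). In the fit over genes none of the 20 passed in the alternating component, as 3.29% of all genes did. Under 0.05 unadjusted were 9 of the 20, against 25.6% of all genes. F13A1, the transglutaminase that cross-links fibrin, averaged -0.02 ± 0.12, plasminogen, PLG, -0.12 ± 0.23, and its activator PLAT -0.08 ± 0.21 (SD, n = 4 each). The alternating value of PLG, -0.19, did not pass (limma adjusted p = 0.0549). The TFPI call was lost without the dye term (limma adjusted p = 0.0705).

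Receptors that bind fibrinogen, FGL1 or FGL2 were measured for 9 of 14 genes, and LAG3 was not among them. None passed in limma in the shared component, and the means ran from -0.16 to 0.13. Under an unadjusted p of 0.05 were 3 of the 9, against 1822 of 12483 among all genes, of which 3.04% passed. Among 12 measured genes of 19 for other proteins with a fibrinogen-like domain, such as angiopoietins, ficolins and tenascins, none passed in limma and 0 were under an unadjusted p of 0.05. Their means ran from -0.07 to 0.07 with a median of -0.009. The highest value of this list, 0.07, belonged to ANGPT1, the angiopoietin that activates the TEK receptor.

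The chains of fibrinogen are assembled in the endoplasmic reticulum with the help of chaperones, and 13 of 22 such genes were measured. HSP90B1, the endoplasmic reticulum form of HSP90, had 0.41, 0.30, 0.12 and 0.29 on arrays 1 to 4 (mean 0.28 ± 0.12, SD, n = 4; limma adjusted p = 0.0336). SEC61B, a subunit of the translocon through which secreted proteins enter, had -0.45, -0.17, -0.68 and -0.10 (mean -0.35 ± 0.27; limma adjusted p = 0.00874). The other 11 did not pass in the shared component, in which 3.04% of all genes passed. Under an unadjusted p of 0.05 in limma were 4 of the 13, against 1822 of 12483 among all genes. The HSP90B1 call was lost when array 2 (limma adjusted p = 0.126), array 4 (0.117) or the dye term (0.0876) was left out, and the SEC61B call when the dye term was (0.208).

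Over the 101 measured genes of the 7 lists together, 3 passed with positive and 1 with a negative shared component, and the shares among all genes were 1.63% and 1.41%. In the alternating component 1 passed with a positive and 1 with a negative value, and the shares among all genes were 1.9% and 1.39%. The median shared component of the 101 genes was 0.001. The share of called genes in the lists was thus near that of all genes. Of the 101 genes 6 were positive on all 4 arrays and 6 negative on all 4, against 8.84% and 6.94% of all genes. Without moderation 0 of the 101 passed in either component.

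**Figure D2:**
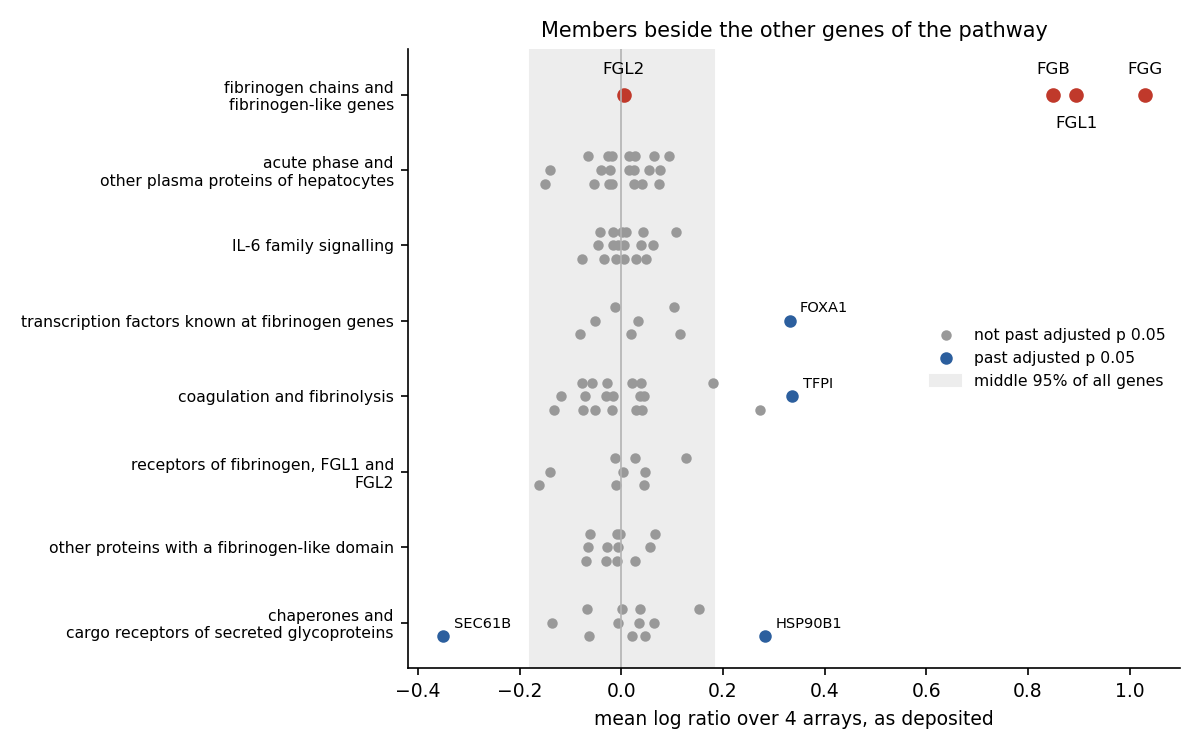
Mean log ratio over the 4 arrays (x axis) of FGB, FGG, FGL1 and FGL2 in the top row and of the measured genes of 7 lists below, 1 point per gene, with the middle 95% of all genes (-0.18 to 0.18) shaded. FOXA1, TFPI, HSP90B1 and SEC61B are the named list genes past an adjusted p of 0.05, and FGB, FGG and FGL1 lie to the right of every list gene. FGB, FGG and FGL1 were selected on these means.

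The genome around the members was read next, over 5 protein-coding neighbours on each side of the fibrinogen cluster and of FGL1 (chromosome 8, GRCh38.p14). Of these 20 genes 13 were measured. None passed in the shared component in limma, 1 was under an unadjusted p of 0.05 (ASAH1, an acid ceramidase near FGL1, at -0.15 ± 0.12, SD, n = 4), and the means ran from -0.15 to 0.06. Among all genes 3.04% passed and 1822 of 12483 were under 0.05 unadjusted in the shared component, and 3.29% passed in the alternating component. Among the 6 measured around the cluster, the nearest were DCHS2, a protocadherin, at -0.03 ± 0.08 and RBM46, an RNA-binding protein of germ cells, at -0.06 ± 0.33. RBM46 had 0.08, -0.42, 0.32 and -0.23 on arrays 1 to 4 and passed in the alternating component (0.26, limma adjusted p = 0.0480), a call lost when array 2 (0.222), array 4 (0.107) or the dye term (0.124) was left out and with median centring (0.0510). Nearest to FGL1 were MTUS1, a microtubule-associated protein, at -0.07 ± 0.11 and PCM1, a protein of centriolar satellites, at 0.06 ± 0.08.

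**Figure D3:**
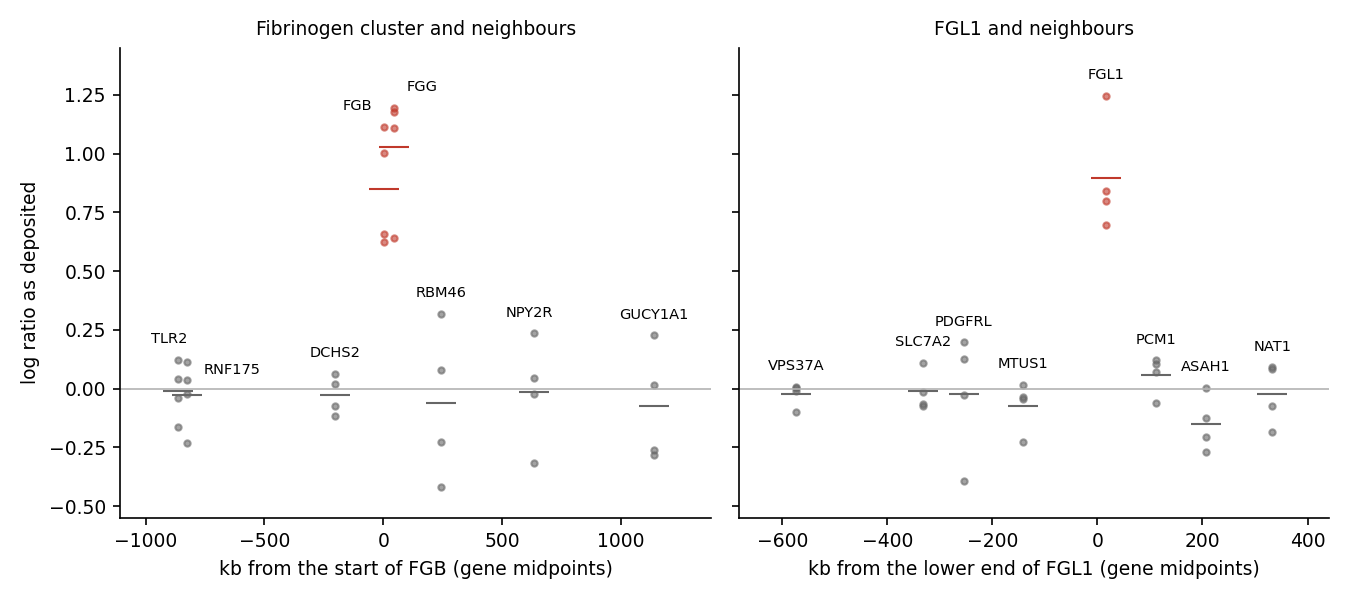
Log ratio on each of the 4 arrays (points) and their mean (bars) for the measured neighbours of the fibrinogen cluster (left) and of FGL1 (right), placed by the distance of the gene's midpoint in kb. FGB, FGG and FGL1, in red, lie above all 13 neighbours on every array, and the neighbours' means lie between -0.15 and 0.06. The members in red were selected on their mean log ratios.

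Genes with the most similar values were found by the root mean square difference of the 4 log ratios, which favours genes of the same size of log ratio. Nearest to FGG was CHGB, chromogranin B of secretory granules (difference 0.13), with 1.03, 1.09, 0.60 and 0.96 on arrays 1 to 4, low on array 3 as FGG was. It was followed by the proteoglycan VCAN (0.20), EPM2A-DT (0.25), the cytochrome CYP1B1 (0.27) and the receptor NOTCH3 (0.28). Nearest to FGB were the ephrin ligand EFNA1 (0.12), CYP1B1 (0.17), the desmosomal protein PERP (0.17), the amino acid transporter SLC38A2 (0.18) and CTXN3 (0.20). EFNA1 had 0.64, 0.81, 0.91 and 0.94 on arrays 1 to 4, the lower pair on the same arrays as FGB. Nearest to FGL1 were CTXN3 (0.12), CLDND2 (0.13), the galactosyltransferase B4GALT5 (0.17), PERP (0.19) and LRP11 (0.19), and CLDND2 peaked on array 3 (1.22) as FGL1 did.

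The fibrinogen genes were not each other's nearest genes. FGB was at 0.41 from FGG and ranked 19 among the genes nearest to FGG, while FGG ranked 32 among those nearest to FGB. FGL1 was at 0.28 from FGB and ranked 13 among the genes nearest to FGB. The likeness rests on 4 arrays and is a description without a test.

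**Figure D4:**
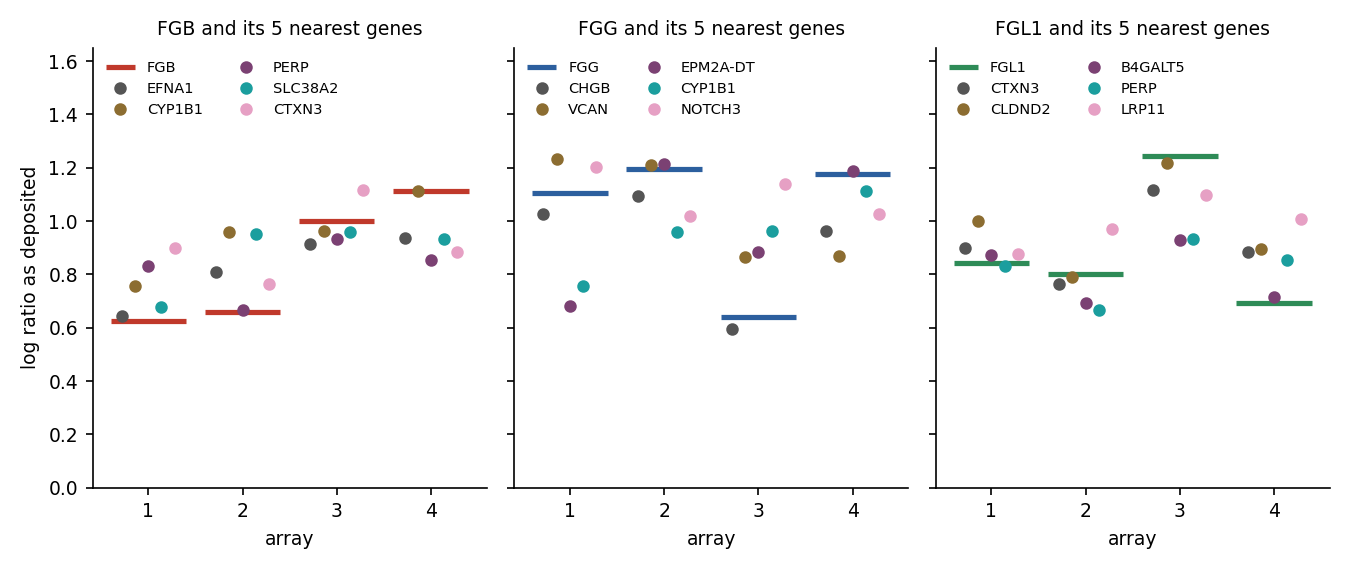
Log ratio as deposited (y axis) on arrays 1 to 4 (x axis) for FGB, FGG and FGL1 (horizontal bars) and, in each panel, the 5 genes with the smallest root mean square difference over the 4 arrays (points). CHGB shares the low array 3 of FGG, and CLDND2 and CTXN3 share the high array 3 of FGL1.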

How the data were processed

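The deposited values are log ratios of 2 channels, 1 column per array. The authors made them from scanner files in ArrayMagic with variance stabilization (VSN) and tested them in limma, per the design text in the labels; no source used here gives versions, spot filters or spot averaging. No further normalization was applied. Probes were named by the platform annotation, and of 20976 probes with 1 symbol RefSeq's GRCh38.p14 annotation held 20963, with 0 symbols updated. All probes of a symbol were averaged per gene, and limma 3.58.1 (R 4.3.3) was run on 12483 genes with the shared and alternating components (2 residual degrees of freedom, 5.89 added by moderation), two-sided, with Benjamini-Hochberg adjustment at 0.05. The design text calls the cultures biological replicates without saying how they were separated, so p-values measure only the spread between these cultures, which may be technical.

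The members and lists were chosen with earlier results of these data known. Named were the members, called list genes (up to 5 per list), 21 pathway genes in any case (11 measured), neighbours and nearest genes; CRP, SAA1, ITIH3, TYK2, ANGPT1 and the genes under other observations were chosen after their values were seen. The fit was tested on simulated data for the shared component of 12483 genes: it found 60 of 67 genes with a change of 0.25, 67 of 67 with 0.5 and 66 of 66 with 1, and made 21 false calls. Alternatives were the dye term, centring, scaling, quantile normalization, moderation, array weights, 1 probe per gene (the one with the largest shared statistic) and leaving out arrays. Figures were drawn with matplotlib 3.10.9.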

Additional observations from a re-analysis of the deposited data

Results flagged for a closer look

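Among 45 named genes, 4 had 1 array far from the other 3, with a gap to the nearest above Dixon's 95% critical value; chance gives such a gap in about 1 in 20 groups at this size. FGG had 0.64 on array 3, against 1.11 to 1.20 on the others. F13A1 had -0.19 on array 1, SLC38A2 had 0.68 on array 1 and VPS37A, a neighbour of FGL1, had -0.10 on array 1.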

How the results depend on the processing

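FGB, FGG and FGL1 kept positive means under every alternative tried and moved by less than 1 SD over arrays; leaving out each array gave 0.74 to 0.96 for FGB, 0.91 to 1.15 for FGG, 0.79 to 1.00 for FGL1 and -0.04 to 0.05 for FGL2. FGL2 moved to 0.098 with the probe of the largest statistic. Their alternating values without each array ran from -0.15 to 0.08 for FGB, -0.27 to -0.039 for FGG, 0.047 to 0.25 for FGL1 and -0.06 to 0.03 for FGL2, and FGG and FGL1 passed only without array 1. In the shared component 379 genes passed, 179 to 1471 without each array, 156 without the dye term, 690 with 1 probe per gene and 0 without moderation (1337 under 0.05 unadjusted). The 1 probe kept per gene was that with the largest shared statistic, a choice that favours more calls in that component. In the alternating component 411 passed, 39 to 2292 without each array, 10 without the dye term, 714 with 1 probe per gene and 1 without moderation. Of the 101 list genes 4 passed in the shared component, 3 to 13 without each array, 1 without the dye term and 0 without moderation. In the alternating component 2 list genes passed, 0 to 17 without each array, 0 without the dye term, 0 without moderation, 1 with median centring, and 4 with array weights and with 1 probe per gene. No paired analysis was possible because each array is already a pair of cultures and the arrays form 1 group. Signal over background was not used here, so dim spots were not filtered.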

Other observations

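Of the 20 measured coagulation and fibrinolysis genes 3 were positive and 1 was negative on 4 of 4 arrays, against 8.84% and 6.94% of all genes. The positive ones were TFPI, PROS1 and PROCR, of which PROS1 and PROCR did not pass in limma. PROS1, which encodes protein S, had 0.13, 0.13, 0.51 and 0.32 on arrays 1 to 4 (mean 0.27 ± 0.18, SD, n = 4; limma adjusted p = 0.0832). PROCR, the endothelial protein C receptor, had 0.15, 0.17, 0.28 and 0.13 (mean 0.18 ± 0.07; limma adjusted p = 0.0738). Other anticoagulant genes of the list had means near 0 or values of mixed sign. Antithrombin, SERPINC1, averaged -0.08 ± 0.09, thrombomodulin, THBD, -0.07 ± 0.08, protein C, PROC, 0.04 ± 0.21 and heparin cofactor II, SERPIND1, 0.03 ± 0.25 (SD, n = 4 each). PROC had 0.19, -0.16, 0.25 and -0.13 on arrays 1 to 4, following the dye orientation. Its alternating value of 0.18 did not pass (limma adjusted p = 0.0532). The negative one was SERPINE2, an inhibitor of thrombin and plasminogen activators, at -0.13 ± 0.11 (limma adjusted p = 0.148).

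Of the 9 measured receptors 2 were negative and 0 positive on 4 of 4 arrays, against 6.94% and 8.84% of all genes. ITGAV, whose heterodimers bind fibrinogen, had -0.21, -0.17, -0.16 and -0.11 (mean -0.16 ± 0.04, SD, n = 4; limma adjusted p = 0.0852), and ITGA5, the fibronectin receptor chain, averaged -0.14 ± 0.09 (limma adjusted p = 0.207). The other measured alpha chains differed from these, ITGA2B averaging 0.13 ± 0.16 and ITGAM, of mixed sign, -0.01 ± 0.15.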
